A study of Mus musculus with 10 samples.

Results

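10 genes that keep T cells in, or return them to, a naive, memory or stem-like state were followed in CD8+ T cells that shared a culture with tumor cells, with or without sodium acetate. The genes were taken by name (Tcf7, Lef1, Il7r, Bach2, Myb, Id3, Foxo1, Bcl6, Tcf3 and Satb1), and each name stood once among the 57825 genes of the expression table. All 10 passed the filter on low values that left 15710 genes for testing. CD8+ T cells had been isolated with a bead kit from spleens of female Balb/c mice, activated for 12 h on plate-bound anti-CD3 with anti-CD28 and IL-2, held with or without acetate for 24 h, and then kept for 48 h with 4T1 cells, a mouse mammary carcinoma line. According to the methods, the RNA came from purified CD8+ T cells. How these were separated from the 4T1 cells after the co-culture was not described there. The group CD8+4T1 (n = 5) had no acetate added and the group CD8+4T1+NaAc (n = 5) received sodium acetate at 5 mM. Both groups were labelled day 3 and shared the activation, the IL-2 and the tumor cells, so there was no group without tumor cells and none of resting cells. The labels did not say whether the 5 samples of a group came from separate mice or cultures, so the p-values measure the spread between these samples, which may be technical. According to the methods, mice entered experiments at 7 to 8 weeks of age, and the age of the spleen donors was not stated separately.

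A CD8+ T cell that meets antigen divides and becomes an effector cell, and a minority of its descendants stays quiescent, lives long and can divide again. TCF-1 (encoded by Tcf7) and LEF-1 bind the same DNA motif and hold this program together with FOXO1, BACH2, MYB, BCL6 and SATB1. The E protein E2A (encoded by Tcf3) activates genes in lymphocytes and ID3 blocks E proteins from binding DNA, while IL-7 receptor alpha (encoded by Il7r) receives the survival signal on which naive and memory T cells depend. T-bet, BLIMP-1, ID2 and IL-2 receptor alpha stand on the effector side.

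Levels are given as FPKM, the number of sequenced fragments of a gene divided by its length and by the depth of the sample. The number of fragments to which the values were scaled was 16306447 to 17443395 per sample without acetate and 16503701 to 18853726 with acetate. Of these, 95.5% to 97.9% lay on listed genes without acetate and 89.8% to 92.1% with it. CD8+4T1+NaAc replicate 1 stood apart. Its fragments per gene differed from those of the other 4 samples of its group by 12.7 to 16.5 times the counting noise (median squared difference). Among those 4 the difference was 2.99 to 6.13 times. Within CD8+4T1, replicate 1 was also the farthest from the others, at 5.12 to 6.05 times, against 2.68 to 4.20 times among the others. Without CD8+4T1+NaAc replicate 1, 8 members were called, 5 higher and 3 lower as with it, and the calls over all genes went from 5742 to 6965. The members rested on 109 to 565 fragments per sample for Bcl6, on 170 to 742 for Id3 and on at least 898 for each of the others. Differences are log2 fold changes (with minus without acetate) on the log2(FPKM + 0.1) scale, from limma fitted over all 15710 genes, and calls were made where the p, adjusted by Benjamini-Hochberg, was under 0.05.

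Bcl6, Id3, Il7r, Myb and Tcf7 were higher with acetate, Lef1, Foxo1 and Satb1 were lower on the scale of the deposited values, and Bach2 and Tcf3 did not pass the test. On 2 of 3 other scales of the samples, described further on, Foxo1 and Satb1 lost their call and Bach2 and Tcf3 gained one. On the deposited scale 8 of 10 regulators were called, where 36.5% of all tested genes were called. By direction, 5 members were higher (17.6% of all tested genes) and 3 were lower (19.0% of all tested genes). For 7 of the 10, every sample of one group lay outside the range of the other group, which was the case for 26.4% of all tested genes. The median log2 fold change of the 10 members was 0.19, and that of all tested genes was -0.02.

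**Figure D1:**
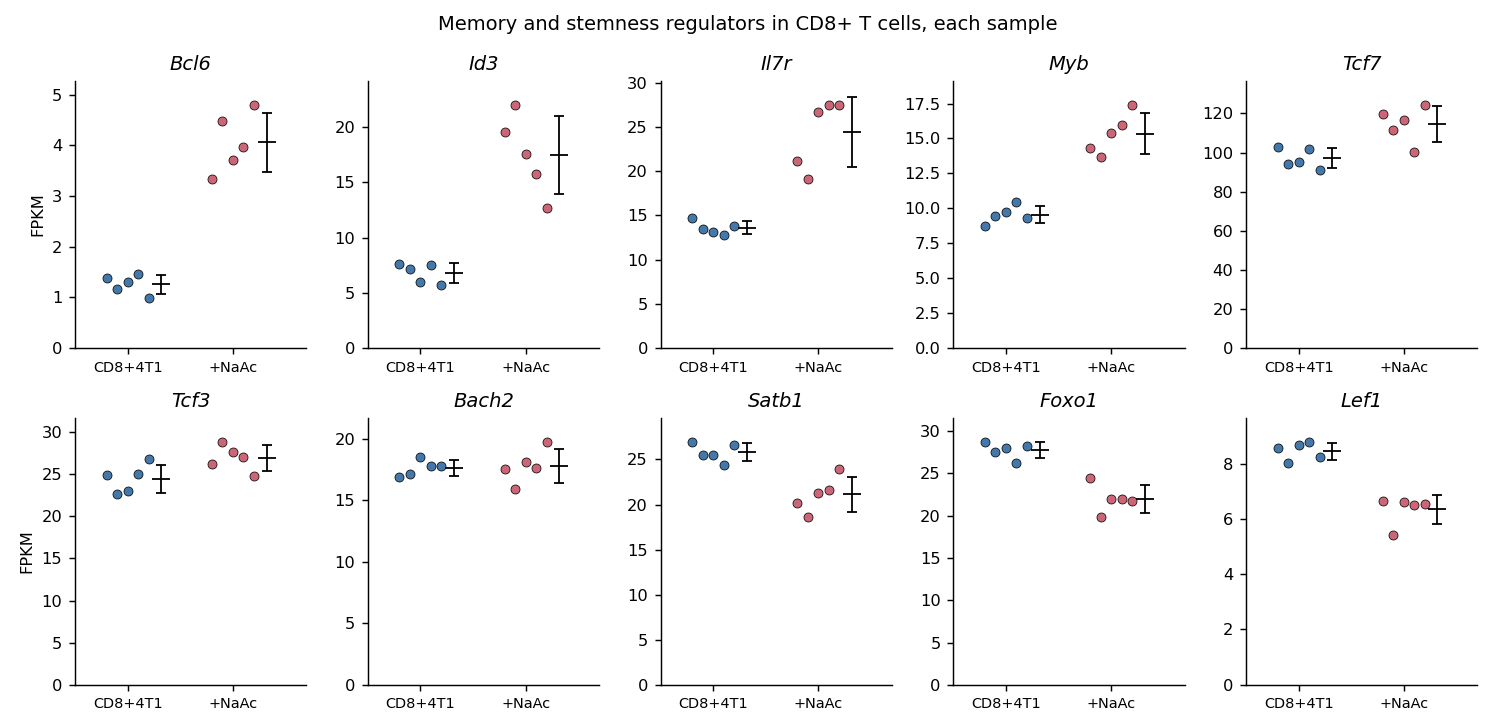
FPKM (y axis, from 0) of each regulator in the 5 CD8+4T1 samples (blue) and the 5 CD8+4T1+NaAc samples (red). Each point is 1 sample and the bar beside it gives mean ± SD, so that the separation of the groups for Bcl6, Id3, Il7r and Myb and their overlap for Tcf7, Tcf3 and Bach2 can be seen.

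The receptor of the set, Il7r, stood at 14.7, 13.5, 13.2, 12.8 and 13.8 FPKM in CD8+4T1 replicates 1 to 5. In CD8+4T1+NaAc it stood at 21.2, 19.1, 26.7, 27.4 and 27.4 FPKM. Every sample with acetate lay above every sample without it, and among the former replicates 1 and 2 were the lowest. The means were 13.6 ± 0.722 and 24.4 ± 3.95 FPKM (SD, n = 5 each), a log2 fold change of 0.82 (SE 0.10, limma adjusted p = 0.000184). The table places Il7r (ENSMUSG00000003882) at chr15:9505874-9530262 on the minus strand. The genome build of these positions was not given in the sources used here, and they are printed as listed.

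Bcl6 encodes a transcriptional repressor that opposes BLIMP-1 and favors memory precursors. It was the member with the lowest level, at 1.38, 1.16, 1.2997, 1.46 and 0.986 FPKM without acetate and at 3.34, 4.47, 3.72, 3.97 and 4.79 FPKM with it. The groups were apart, and the gap between them was wider than the range of either group. The means of 1.26 ± 0.186 and 4.06 ± 0.579 FPKM differed by a log2 fold change of 1.62 (SE 0.13, limma adjusted p = 2.01e-05), and 97.0% of all tested genes had a lower log2 fold change. Bcl6 (ENSMUSG00000022508) is listed at chr16:23783802-23807602 on the minus strand.

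Bach2 encodes a repressor that restrains effector genes in T cells. Its level was 16.9, 17.2, 18.5, 17.8 and 17.8 FPKM without acetate and 17.5, 16.0, 18.2, 17.7 and 19.8 FPKM with it, so the range with acetate contained the whole range without it. Its log2 fold change was 0.01, with a 95% confidence interval from -0.12 to 0.14 and a limma adjusted p of 0.901. Bach2 (ENSMUSG00000040270) lies at chr4:32238804-32586108 on the plus strand.

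BCL6 and STAT5, the factor that the IL-7 and IL-2 receptors activate, recognize related DNA letters, a TTC and a GAA separated by a spacer. For this reason the windows around the start sites of the members (250 bases before to 50 after, from RefSeq on GRCm38.p6) were searched for TTCNNNGAA, which reads the same on both strands. All 10 members matched, with 19 windows. The letters occurred in 4 of the 19, namely the window of Il7r, both windows of Bcl6 and the window of Bach2, and in 8.30% of 32851 windows of the same length over all genes. These 4 windows are printed 5′ to 3′ in the direction of the gene, on the minus strand for Il7r and Bcl6 and on the plus strand for Bach2, with each match in capitals.
Il7r (chr15:9529827-9530126): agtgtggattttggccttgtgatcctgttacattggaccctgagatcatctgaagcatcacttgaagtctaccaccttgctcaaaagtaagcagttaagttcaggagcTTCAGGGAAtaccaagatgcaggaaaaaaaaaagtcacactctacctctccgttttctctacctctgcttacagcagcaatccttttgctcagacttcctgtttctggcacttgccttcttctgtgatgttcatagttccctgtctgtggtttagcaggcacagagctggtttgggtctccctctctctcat
Bcl6 (chr16:23988803-23989102): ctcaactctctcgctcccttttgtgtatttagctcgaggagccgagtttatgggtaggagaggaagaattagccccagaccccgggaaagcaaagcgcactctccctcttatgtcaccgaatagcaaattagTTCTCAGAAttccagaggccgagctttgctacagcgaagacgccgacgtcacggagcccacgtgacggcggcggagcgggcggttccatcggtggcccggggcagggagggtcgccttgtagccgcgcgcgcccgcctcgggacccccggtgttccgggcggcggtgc
Bcl6 (chr16:23981234-23981533): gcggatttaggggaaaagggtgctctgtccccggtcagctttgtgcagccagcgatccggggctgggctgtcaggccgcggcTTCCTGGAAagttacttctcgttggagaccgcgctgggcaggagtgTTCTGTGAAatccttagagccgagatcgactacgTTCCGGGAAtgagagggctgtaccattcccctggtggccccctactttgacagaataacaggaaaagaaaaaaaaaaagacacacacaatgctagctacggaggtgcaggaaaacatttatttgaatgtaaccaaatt
Bach2 (chr4:32417185-32417484): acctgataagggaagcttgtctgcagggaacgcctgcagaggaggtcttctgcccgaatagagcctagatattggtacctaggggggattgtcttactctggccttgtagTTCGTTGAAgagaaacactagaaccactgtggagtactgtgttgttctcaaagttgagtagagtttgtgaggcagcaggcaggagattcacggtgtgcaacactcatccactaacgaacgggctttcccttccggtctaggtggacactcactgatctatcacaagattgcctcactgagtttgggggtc

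The match in the Il7r window begins 142 bases before the start site and that in the Bach2 window 140 bases before it. The first Bcl6 window has 1 match, 118 bases before its start site, and the second has 3, of which the farthest begins 168 bases before it. Il7r and Bcl6 were called higher and Bach2 was not, so the letters were present in windows of genes with and without a call. No match shared bases with a match of the other 7 motifs searched on both strands. These were TGTTTAC (FOXO, 2 of 19 member windows and 3.65% of all windows), CTTTGA (TCF and LEF, 3 of 19 and 16.0%), TGANTCA (AP-1, 0 of 19 and 7.81%), AACTG (MYB, 4 of 19 and 44.8%), CAGGTG (E proteins, 4 of 19 and 20.2%), CAGGAAGT (ETS, 3 of 19 and 3.33%) and TGACGTCA (CREB, 0 of 19 and 1.79%). A match is a description of the letters, not of a bound site.

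Among the E protein regulators, Id3 was at 7.59, 7.20, 5.99, 7.56 and 5.75 FPKM without acetate and at 19.6, 22.0, 17.5, 15.7 and 12.7 FPKM with it. The groups did not overlap, and the samples with acetate differed among themselves more than those of any other member (a coefficient of variation of 20.3%, against 12.9% without acetate). The log2 fold change was 1.33 (SE 0.14, limma adjusted p = 7.3e-05), from 6.82 ± 0.880 to 17.5 ± 3.55 FPKM (SD, n = 5 each). Id3 (ENSMUSG00000007872) is listed at chr4:135870808-135873066 on the plus strand.

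Tcf3, the gene of E2A, was at 24.9, 22.7, 23.0, 25.0 and 26.7 FPKM without acetate and at 26.2, 28.8, 27.6, 27.1 and 24.8 FPKM with it. The groups overlapped: replicates 1 and 5 with acetate lay within the range without it. The difference was small, at 0.14 with a 95% interval from 0.01 to 0.27, and its limma adjusted p was 0.0950. Tcf3 (ENSMUSG00000020167) is listed at chr10:80245348-80269481 on the minus strand.

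Myb, whose product supports the self-renewal of stem-like CD8+ T cells, was at 8.76, 9.43, 9.76, 10.4 and 9.32 FPKM without acetate and at 14.3, 13.6, 15.4, 16.0 and 17.4 FPKM with it. All 5 samples with acetate were higher than all 5 without it. The means were 9.54 ± 0.617 and 15.3 ± 1.46 FPKM, a log2 fold change of 0.68 (SE 0.07, limma adjusted p = 7.47e-05). Myb (ENSMUSG00000019982) is listed at chr10:21000834-21036883 on the minus strand.

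The paired HMG-box factors moved in opposite directions, on the deposited scale and on the others that were tried. Tcf7 was by far the most abundant member, at 102.9, 94.4, 95.3, 102.0 and 91.2 FPKM without acetate and at 119.9, 111.3, 116.5, 100.3 and 124.2 FPKM with it. CD8+4T1+NaAc replicate 4 fell inside the range without acetate and the other 4 lay above it. The log2 fold change of 0.23 (SE 0.06, limma adjusted p = 0.0158) was the smallest of the called members. Tcf7 (ENSMUSG00000000782) is listed at chr11:52143198-52174158 on the minus strand.

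Lef1 was at 8.55, 8.03, 8.66, 8.78 and 8.25 FPKM without acetate and at 6.64, 5.42, 6.60, 6.51 and 6.52 FPKM with it. The groups did not overlap, and replicate 2 with acetate stood below the other 4, which were close to each other. The log2 fold change was -0.41 (SE 0.07, limma adjusted p = 0.000679). Lef1 (ENSMUSG00000027985) is listed at chr3:130904120-131018005 on the plus strand.

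Foxo1, whose product drives Il7r and Klf2 in resting T cells, was at 28.7, 27.5, 28.0, 26.2 and 28.2 FPKM without acetate and at 24.4, 19.8, 21.9, 22.0 and 21.7 FPKM with it. Satb1 encodes an organizer of chromatin in T cells and was at 26.9, 25.5, 25.5, 24.4 and 26.6 FPKM without acetate and at 20.2, 18.6, 21.3, 21.6 and 23.9 FPKM with it. For both genes every sample with acetate lay below every sample without it, although for Satb1 the nearest samples were close. The log2 fold change was -0.34 for Foxo1 (SE 0.06, limma adjusted p = 0.000892). It was -0.29 for Satb1 (SE 0.06, limma adjusted p = 0.00519), and both calls were lost at the same total FPKM and on T cell genes, but not on median ratios. Foxo1 (ENSMUSG00000044167) is listed at chr3:52175757-52260642 on the plus strand and Satb1 (ENSMUSG00000023927) at chr17:52043215-52140318 on the minus strand.

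The order of the levels changed below Tcf7, which stood first in both groups. Without acetate it ran Tcf7, Foxo1, Satb1, Tcf3, Bach2, Il7r, Myb, Lef1, Id3 and Bcl6. The ranges of neighbors overlapped for Foxo1 with Satb1, for Satb1 with Tcf3 and for Myb with Lef1, and the other neighbors were apart. With acetate it ran Tcf7, Tcf3, Il7r, Foxo1, Satb1, Bach2, Id3, Myb, Lef1 and Bcl6. Each neighboring pair from Tcf3 to Myb then overlapped, although the ends of this run of 7 genes, Tcf3 at 24.8 to 28.8 FPKM and Myb at 13.6 to 17.4 FPKM, were apart, and Lef1 and Bcl6 stood apart below it.

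2 of 3 other ways to scale the samples changed the calls of 4 members, and the third changed none. The FPKM summed to 310965 to 335151 per sample without acetate and to 282995 to 295928 with it, so that a common level for all samples can be set in more than 1 way. Bringing every sample to the same total FPKM moved the median of all tested genes from -0.02 to 0.15, and scaling to 10 T cell genes moved it to 0.18. On both scales 7 members were called higher and 1 lower. At the same total 31.2% of all tested genes were called higher and 8.83% lower, and on T cell genes 31.6% and 7.12%. Bach2 and Tcf3 gained a call (0.19 and 0.31 at the same total), and Foxo1 and Satb1 lost theirs (-0.16 and -0.11). Lef1 remained called lower, at -0.24 (limma adjusted p = 0.0247) at the same total and at -0.21 (limma adjusted p = 0.0360) on T cell genes. Scaling by the median ratio of each sample to the mean of all samples left all 8 calls, with Foxo1 at -0.33 and Satb1 at -0.28, and a median of all genes at -0.01. Over all genes, 48.1% of the calls were higher on the deposited scale, 49.0% on median ratios, 77.9% at the same total and 81.6% on T cell genes. Relative to the median of all genes the members differed little between the deposited scale, the same total and T cell genes: Foxo1 was at -0.32 on each, Satb1 at -0.27 on each, and Bach2 at 0.03 on each.

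**Figure D2:**
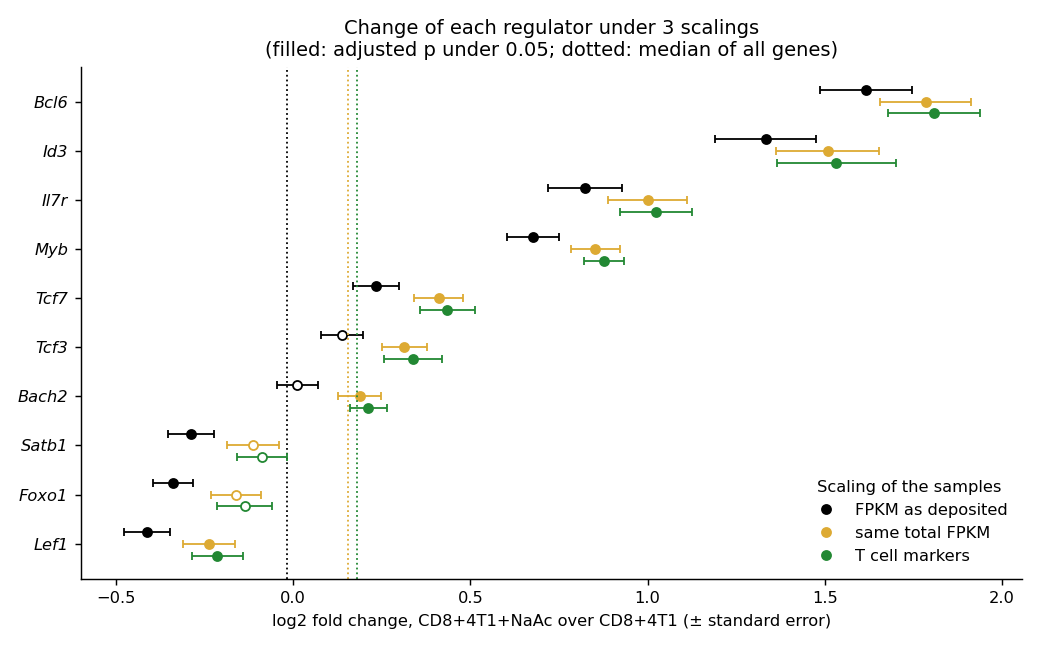
Log2 fold change (x axis, with minus without acetate, ± standard error) of each regulator on the deposited FPKM (black), at the same total FPKM (yellow) and scaled to 10 T cell genes (green), with filled points for an adjusted p under 0.05 and dotted lines at the median of all genes tested. Bcl6, Id3, Il7r, Myb and Tcf7 are called higher and Lef1 lower on these 3 scales, while the calls of Foxo1, Satb1, Tcf3 and Bach2 change with the scale.

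The ratio of a pair of genes within a sample does not depend on the scaling of that sample. For 8 pairs that oppose each other or act together, the log2 ratios were compared by a two-sided exact permutation test over all ways to divide 10 samples into groups of 5, with p-values adjusted over the 8 pairs. The smallest p that this design allows is 0.00794. By this test 6 of 8 ratios changed, 5 to higher and 1 to lower values. The pairs were chosen with earlier results of these data known, so that the p-values describe these samples and are no independent evidence.

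Tcf7 gained on both of its partners. The ratio of Tcf7 to Tbx21, the gene of the effector factor T-bet, was 1.83, 1.81, 1.75, 1.87 and 1.84 without acetate and 3.32, 2.91, 3.48, 2.59 and 3.86 with it. The samples without acetate were nearly equal and all 5 with acetate lay above them (log2 difference 0.81, exact permutation p = 0.00794, adjusted p = 0.0127). Tcf7 to Lef1 went from a median of 11.6 (range 11.00 to 12.04) to a median of 18.0 (range 15.4 to 20.5), a log2 difference of 0.65 with the same p-values (exact permutation p = 0.00794, adjusted p = 0.0127). This comparison of the paired factors holds on any scaling of the samples.

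Id3 was below Id2, the inhibitor linked to effector cells, in every sample. The ratio of Id3 to Id2 was 0.195, 0.198, 0.188, 0.229 and 0.163 without acetate and 0.494, 0.505, 0.414, 0.325 and 0.315 with it. The groups did not overlap (log2 difference 1.06, exact permutation p = 0.00794, adjusted p = 0.0127). Tcf3 to Id2 had a median of 0.719 without and 0.652 with acetate, and the groups overlapped (log2 difference -0.15, exact permutation p = 0.103, adjusted p = 0.103).

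The receptor pair Il7r to Il2ra, which sets the survival receptor against the chain that makes the IL-2 receptor highly sensitive, had a ratio of 0.0902, 0.0809, 0.0760, 0.0799 and 0.0817 without acetate. With acetate it was 0.151, 0.158, 0.194, 0.195 and 0.197. All samples with acetate were higher (log2 difference 1.12, exact permutation p = 0.00794, adjusted p = 0.0127), and Il2ra remained the more abundant gene in all 10 samples.

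Foxo1 to Klf2, a factor and a quiescence gene that it is known to activate, was the only pair called lower. The ratio was 20.6, 16.1, 20.6, 15.1 and 11.6 without acetate and 5.35, 4.01, 5.91, 5.37 and 8.11 with it (log2 difference -1.55, exact permutation p = 0.00794, adjusted p = 0.0127). Klf2 itself was 1.36 to 2.43 FPKM without acetate and 2.67 to 4.94 FPKM with it, while Foxo1 was lower on the deposited scale.

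The pairs with Prdm1, the gene of BLIMP-1, were less regular, and Prdm1 itself varied between the samples with acetate (3.74, 1.51, 2.34, 2.79 and 1.49 FPKM, against 1.34, 1.48, 1.46, 1.11 and 1.61 FPKM without it). Bcl6 to Prdm1 was 1.03, 0.786, 0.889, 1.31 and 0.613 without acetate and 0.893, 2.96, 1.59, 1.42 and 3.22 with it. Replicate 1 with acetate lay inside the range without it (log2 difference 1.01, exact permutation p = 0.0317, adjusted p = 0.0423), and the call was lost when 0.1 FPKM was added to both genes (adjusted p = 0.0529). Bach2 to Prdm1 was 12.6, 11.6, 12.7, 16.1 and 11.1 without acetate and 4.69, 10.6, 7.78, 6.34 and 13.3 with it (log2 difference -0.67, exact permutation p = 0.0556, adjusted p = 0.0635). Without CD8+4T1+NaAc replicate 5 this ratio was called lower.

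**Figure D3:**
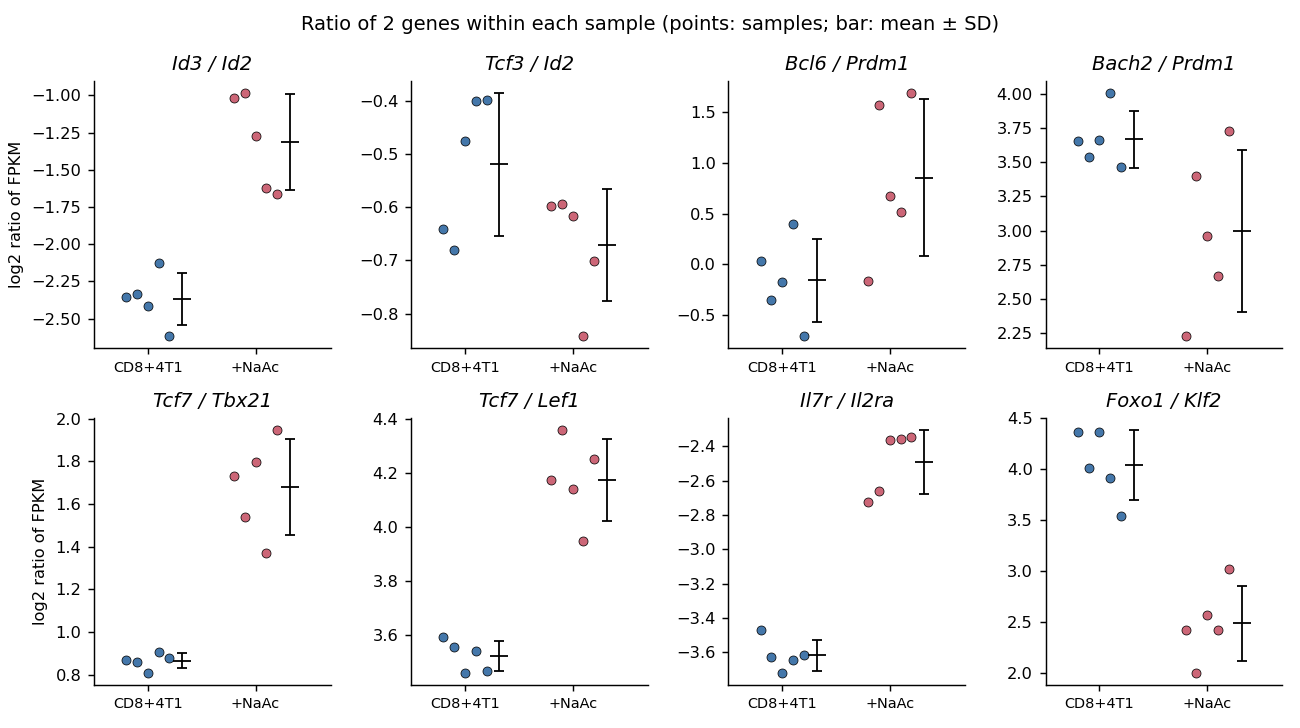
Log2 ratio of FPKM (y axis, not starting at 0) of 8 gene pairs in each CD8+4T1 sample (blue) and each CD8+4T1+NaAc sample (red), with mean ± SD. The groups are apart for Id3 to Id2, Tcf7 to Tbx21, Tcf7 to Lef1, Il7r to Il2ra and Foxo1 to Klf2, and overlap for Tcf3 to Id2 and for both pairs with Prdm1.

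In the lists that follow, calls can be set against 17.6% higher and 19.0% lower over all tested genes on the deposited scale, and against 31.2% and 8.83% at the same total FPKM. On the deposited scale the close relatives of the members did not move as one group. Of 15 paralogues, 11 were tested, 5 were called higher and 2 lower (median log2 fold change 0.23, against -0.02 over all tested genes). Id1, a further inhibitor of E proteins, had the largest difference among the tested genes of the 5 related lists. It was at 3.15, 2.52, 1.43, 3.87 and 2.25 FPKM without acetate and at 17.8, 39.0, 21.9, 22.9 and 11.8 FPKM with it (log2 fold change 3.02, SE 0.32, limma adjusted p = 8.52e-05), and the samples with acetate had the same order as in the sum of epithelial markers given further on. Tcf7l1, a further TCF factor, was higher by 0.58 (SE 0.14) and Bach1 by 0.35 (SE 0.10), and Bach1 lost its call without CD8+4T1+NaAc replicate 4 (limma adjusted p = 0.0514) and without both replicates 1. Foxo3 (-0.40, SE 0.10) and Mybl1 (-0.36, SE 0.11) were lower on the deposited scale, and both lost the call at the same total and on T cell genes, but not on median ratios. Mybl1 also lost it when 1 sample was omitted, in 8 of 10 fits.

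The genes of proteins that work with TCF-1 and LEF-1 were split as well on the deposited scale. Of 10 cofactors and target reporters, 9 were tested, 3 were called higher and 2 lower (median 0.02). The coactivator beta-catenin (Ctnnb1) was higher by 0.41 (SE 0.06), from 48.7 to 64.8 FPKM. It stood at 63.6, 71.4, 64.3, 65.7 and 59.2 FPKM in CD8+4T1+NaAc replicates 1 to 5. This is the order of the epithelial marker sum given further on. Of the Groucho family of cofactors, Tle2 was higher by 0.97 (SE 0.17) and Tle5 by 0.30 (SE 0.06), while Tle3 was at -0.31 (SE 0.07). Gsk3b, a kinase that marks beta-catenin for breakdown, was at -0.30 (SE 0.07), and the calls of Tle3 and Gsk3b were lost at the same total and on T cell genes. Axin2, a common reporter of beta-catenin activity with TCF and LEF, was at 1.24 and 1.19 FPKM and not called (-0.04, limma adjusted p = 0.840).

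Around the IL-7 receptor, 12 of 12 genes were tested, 3 were called higher and 4 lower (median -0.13). The higher genes were the feedback inhibitors Socs3 (1.13, SE 0.19) and Socs1 (0.76, SE 0.19) and the repressor Gfi1 (0.71, SE 0.13). Cish, a further feedback inhibitor, was at -0.54 (23.6 and 16.1 FPKM) and was not called (limma adjusted p = 0.0692). The survival gene Bcl2, a known target of IL-7 signals, was at 35.3, 36.8, 36.0, 34.6 and 39.2 FPKM without acetate and at 29.6, 17.7, 21.4, 20.9 and 20.5 FPKM with it (-0.74, SE 0.11, limma adjusted p = 0.000534). Bcl2 fell on every scale tried while Il7r rose, and for neither gene did the groups overlap. The common gamma chain Il2rg (-0.26, SE 0.05) and Mcl1 (-0.25, SE 0.05) were lower on the deposited scale and not called at the same total or on T cell genes, where 5 genes of this list were higher and 1 lower.

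Genes of quiescence and of naive or central memory cells were the largest list, with 23 of 23 tested, 9 called higher and 8 lower (median 0.01). Igfbp4, which is often high in naive T cells, was higher by 1.76 (SE 0.15), from 10.5 to 36.2 FPKM, and among the samples with acetate it also had the order of the epithelial marker sum (34.0, 48.01, 35.0, 37.9 and 25.9 FPKM in replicates 1 to 5). The receptor Slamf6 (1.38, SE 0.18) and the follicle homing receptor Cxcr5 (1.23, SE 0.08), which are found on stem-like CD8+ T cells, were higher in all 5 samples than in any sample without acetate. The quiescence gene Slfn2 (-0.70, SE 0.10), the cytokine gene Ltb (-0.64, SE 0.10) and the antiproliferative gene Tob1 (-0.54, SE 0.08) were lower on every scale tried. The split of this list was 12 higher and 5 lower at the same total FPKM, and 12 and 3 on T cell genes.

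On the effector side, 9 of 11 regulators were tested, 1 was called higher and 3 lower (median -0.03). Tbx21 was at -0.58 (SE 0.06), from 53.4 to 35.8 FPKM, and Irf4, a factor induced by T cell receptor signals, was at -0.55 (SE 0.07), and both were called lower on every scale tried. Il2ra was at -0.30 (SE 0.05) and was not called at the same total or on T cell genes, where the split was 3 higher and 2 lower. Eomes, a T-box factor of memory and effector cells, was higher by 0.42 (SE 0.07). Prdm1 was at 0.65 with a limma adjusted p of 0.0546. Id2, counted here with the paralogues, was called higher on the deposited scale (0.29, SE 0.07, limma adjusted p = 0.00831). Its means were 35.1 and 42.8 FPKM, and the groups did not overlap.

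**Figure D4:**
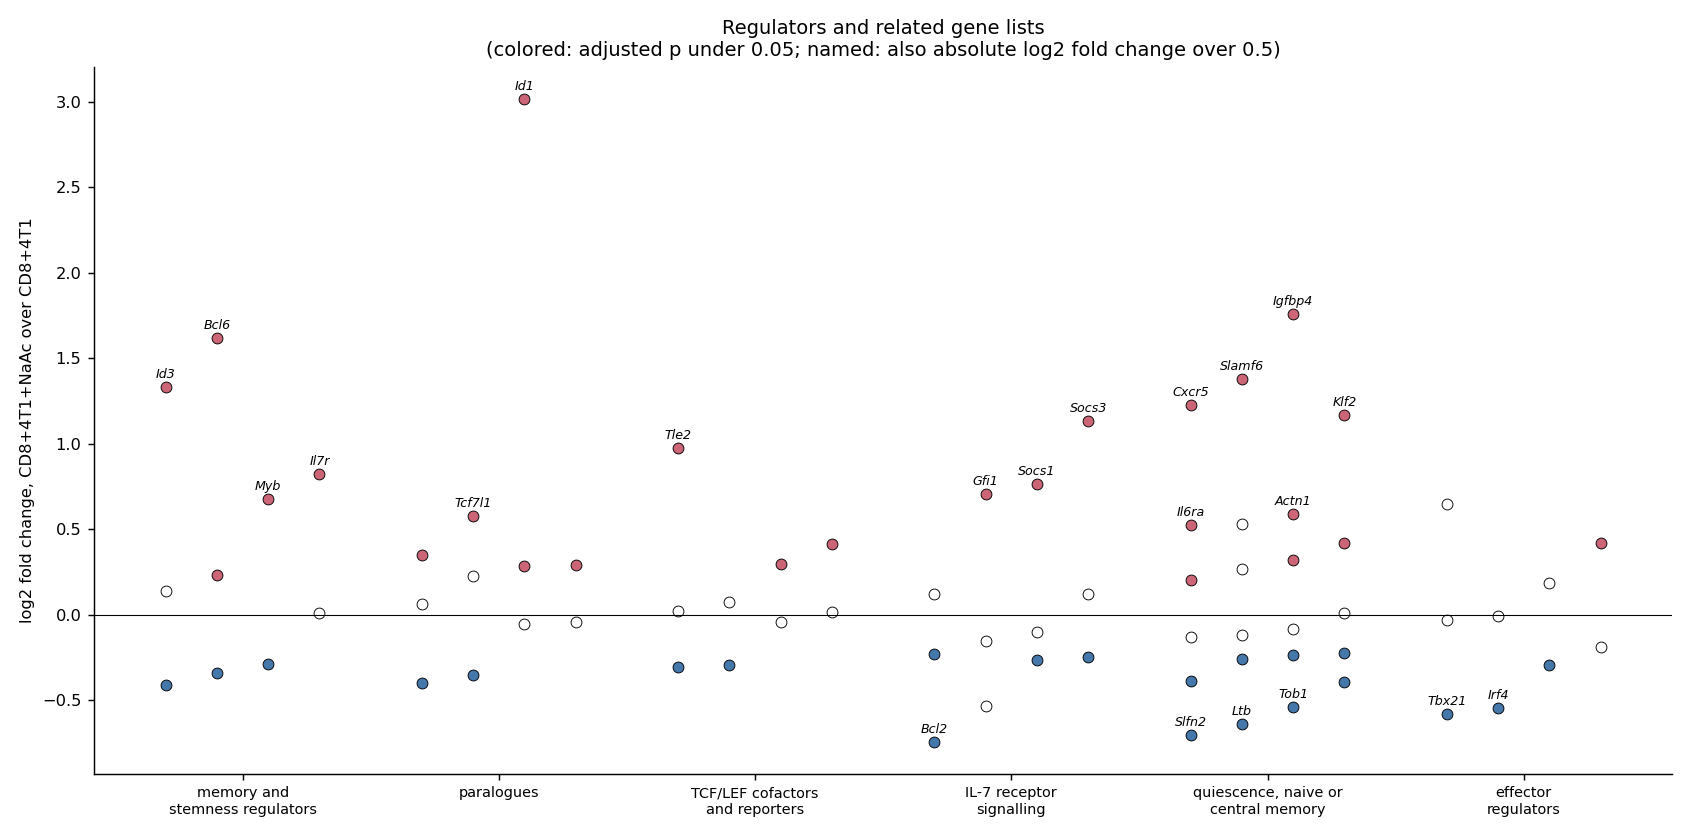
Log2 fold change (y axis, with minus without acetate) of each tested gene of the regulators and of 5 related lists on the deposited FPKM scale, in red (higher) or blue (lower) for an adjusted p under 0.05 and in white otherwise. Each list holds called genes in both directions on this scale, from Id1 at 3.02 to Bcl2 at -0.74. At the same total FPKM the paralogues (11 tested) and the cofactors (9 tested) each hold 0 genes called lower. Over all tested genes the share is 8.83%, and lists this small can hold 0 at that share.

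Within the groups, the samples of a member can be compared with those of every other gene. After the mean of its own group was taken from each of the 10 samples, and over 7053 protein-coding genes that averaged 5 FPKM or more, the genes most like Tcf7 were Inka2 (Pearson r = 0.94), Lactb (r = 0.94) and Sub1 (r = 0.91). Those most like Lef1 were Laptm5 (r = 0.93), Tmem135 (r = 0.93) and Nid1 (r = 0.91). Those most like Il7r were Stat5a (r = 0.94), Txk (r = 0.94) and Avl9 (r = 0.93). They are the top of a long search over 10 libraries that share depth and scaling, and are given as a description with no test.

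The cells carried the markers of CD8+ T cells, with Cd8a at 78.6 and 76.5 FPKM and Cd8b1 at 147.4 and 166.6 FPKM (means without and with acetate). Of 10 T cell markers, 6 were called lower and 0 higher, and their sum was 901 to 1008 FPKM without and 818 to 932 FPKM with acetate. They ran from Cd3d at -0.54 (SE 0.11) to Trac at 0.26 (SE 0.13, not called). Cd8a (-0.04) and Cd8b1 (0.17) were not called either. The scale on T cell genes averages these 10 markers, which did not move alike. Where a sample holds RNA of more than 1 cell type, fewer cells of a type and less RNA per cell cannot be told apart. Epithelial genes that 4T1 cells express moved the other way. Of 12 such markers, 7 were tested and 5 were called, all higher, and their sum was 8.18, 10.7, 8.94, 17.5 and 18.1 FPKM without acetate and 73.5, 172.9, 101.0, 126.7 and 64.4 FPKM with it. Krt8 was at 3.42 and 34.2 FPKM and Lcn2 at 3.99 and 40.2 FPKM, while Epcam was not called (0.519 and 0.699 FPKM) and Krt5 and Krt19 were at or near 0.

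Among the samples with acetate, Id3, Tcf3, Id1 and Igfbp4 were highest in replicate 2, which had the highest sum of epithelial markers, and lowest in replicate 5, which had the lowest. The same held for Ctnnb1, Tle5, Socs3 and Klf2. Bcl6 was highest in replicate 5 and next in replicate 2, and Myb was highest in replicate 5. Il7r, Myb, Lef1, Foxo1, Satb1 and Bach2 were all lowest in replicate 2. The part of tumor cell RNA in the differences of the members was not tested, and no sample of 4T1 cells alone was analysed here.

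**Figure D5:**
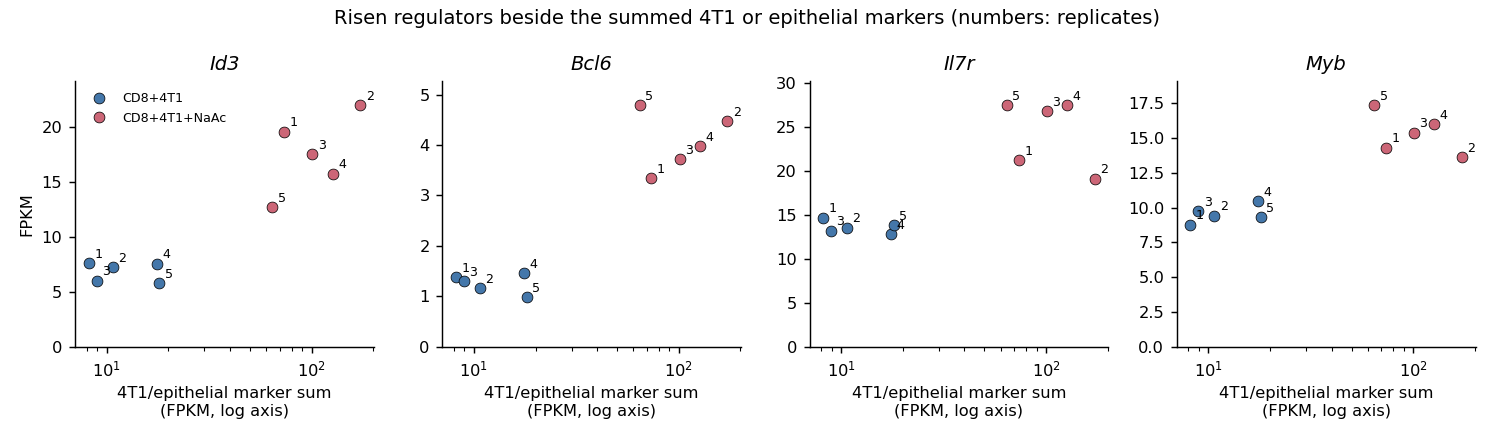
FPKM (y axis, from 0) of Id3, Bcl6, Il7r and Myb against the sum of 12 epithelial markers (x axis, FPKM, log scale) in each sample, with replicate numbers beside the points. The CD8+4T1 samples lie between 8.18 and 18.1 on the x axis and the CD8+4T1+NaAc samples between 64.4 and 172.9, with Id3 highest and Il7r and Myb lowest in replicate 2 with acetate.

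Of 3 CD4 T cell markers 2 were tested. Cd4 rose from 0.541 to 1.60 FPKM (log2 fold change 1.44, SE 0.20, limma adjusted p = 0.000317), while Zbtb7b, the most abundant of the 3, was at 13.5 and 12.4 FPKM and was not called (-0.13, limma adjusted p = 0.385) and Foxp3 was at 0.221 and 0.179 FPKM. The sum of 5 B cell markers was 3.92 to 4.91 FPKM without and 4.55 to 6.24 FPKM with acetate, with 0 of 2 tested genes called by limma and Ms4a1 and Pax5 at or near 0. The sum of 6 myeloid markers was 0.890 to 1.82 and 2.92 to 5.99 FPKM, with 2 of 2 tested genes called higher and S100a9 at 0 in all samples. The sum of 3 natural killer cell markers was at most 0.195 and 0.292 FPKM. Of 4 fibroblast or endothelial markers 1 was tested, Pecam1, which T cells also express, and it was higher by 0.58 (7.50 and 11.3 FPKM). The part of these cells in the differences of the members was not tested.

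Whether the counting used strand was not given in the sources used here, so fragments of genes that overlap a member could be split between them. Listed genes that overlap a member held at most 6.93% as many fragments as the member, which was the case for Satb1, and there were none for Il7r, Id3 and Tcf3.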

How the data were processed

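Libraries from 10 samples of CD8+ T cells (NEBNext Ultra, NovaSeq) were grouped by their labels, 5 without and 5 with sodium acetate. For each gene the authors deposited FPKM by sample, which are scaled to gene length and to the depth of the sample, and in other columns its position and length. The submitters' processing notes name fastp, HISAT2 2.0.5, StringTie 1.3.3b and featureCounts 1.5.0-p3. Genome build, annotation and strand setting were not given in the sources used here. Of 52073 genes shared with a GRCm38 annotation, 1467 had the same start and end, so that positions were printed as listed.

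FPKM are not counts, so the main test used no count model. FPKM times gene length gave whole fragments for 100% of values (within 0.1 of a whole number), from which the depth was read. Precision is limited by 5 samples a group, and no interval for counting error was needed.

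Genes averaging 0.5 FPKM or more entered limma (version 3.58.1, R 4.3.3) as log2(FPKM + 0.1). Moderation was robust and followed a trend of variance with level, and p-values were adjusted by Benjamini-Hochberg over all 15710 genes. This scale understates the change of low genes. Ratios of gene pairs were compared by exact permutation tests in scipy 1.17.1. The use of limma was checked on simulated data. Plots came from matplotlib 3.10.9.

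The members, the lists, the pairs and the motifs were chosen with earlier results of these data known, so that the counts over them are descriptions. The genes named from a list were up to 3 called higher and up to 3 called lower with the largest change, with genes of the pairs and markers, and Axin2, Klf2 and Prdm1 for their roles. Cish was named after its values were seen. A few other spellings of the motifs were tried and not kept. Promoter windows came from RefSeq (GRCm38.p6), and the 3 genes most like Tcf7, Lef1 and Il7r were taken by correlation. Alternatives were other pseudocounts (0.01 and 1), filters (none, and a mean of 5 FPKM), scalings, moderation, sample weights, voom on whole fragments, protein-coding genes only, a threshold of 0.01, a replicate block, leaving out each sample, and leaving out both replicates 1.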

Additional observations from a re-analysis of the deposited data

Results flagged for a closer look

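In groups of 5, a sample was looked at again where its gap to the nearest other sample exceeded 0.71 of the range of the group. Of 56 groups of values checked this held for 5, where chance gives about 1 in 20, or 2.8. Lef1 was set apart in CD8+4T1+NaAc replicate 2, the lowest of its group at 5.42 FPKM (gap of 0.898 of the range on the log2 scale). The same library had the most fragments in its group (18853726, gap of 0.747 of the range) and the highest sum of epithelial markers. Without it the log2 fold change of Lef1 was -0.36 and was called.

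The number of genes above 0 FPKM was lowest in replicate 1 of both groups, at 22291 in CD8+4T1 (gap of 0.848 of the range) and at 20233 in CD8+4T1+NaAc (gap of 0.916). CD8+4T1+NaAc replicate 1 also had the lowest sum of B cell markers of its group, at 4.55 FPKM (gap of 0.842), and differed from the other 4 samples by 12.7 to 16.5 times the counting noise. Leaving out both replicates 1 kept the 5 higher and 3 lower calls among the members.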

How the results depend on the processing

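Of 239 fits of single members under other settings, 226 gave the same direction and the same side of the threshold, 5 lost a call, 6 gained one and 2 changed sign. Both sign changes were in Bach2, which was not called, and leaving out 1 sample at a time gave -0.027 to 0.050 for it. All 10 fits that left out 1 sample called 8 members. Bringing samples to the same total FPKM, or scaling to T cell genes, ended the calls of Foxo1 and Satb1 and added Bach2 and Tcf3, and scaling by median ratios changed no call of a member. Sample weights and voom each called 9 members, with Tcf3 added, at a threshold of 0.01 the call of Tcf7 was lost, and with a mean of at least 5 FPKM required Bcl6 was not tested. Of the 26 called genes named from the lists by size of change, 18 were called in every fit and 19 under both scalings. Of 104 tests of the ratios, 89 were the same, 14 lost a call and 1 gained one. Bcl6 to Prdm1 lost its call in 7 of 10 tests that left out 1 sample. The cause of these changes was not tested.

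Whether the replicate numbers pair the samples cannot be settled from 5 samples a group. Samples with the same number had deviations that correlated at -0.03 to 0.07. The mean was 0.014, against -0.003 for samples with different numbers. 2 of 5 samples without acetate correlated best with their own number, and replicate 1 had the fewest genes above 0 FPKM in both groups. With the replicate number as a block, 8 members were called and the calls over all genes went from 5742 to 5399. For the ratios the block left 0 of the 6 calls, because the smallest p that 5 pairs allow is 0.0625. Bcl6 rested on the fewest fragments of the members, 109 in its lowest sample.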
